A study of Homo sapiens with 12 samples.

Results

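The urea cycle and glutamine enzymes studied here were the 9 genes CPS1, NAGS, OTC, SLC25A15, ASS1, ASL, ARG1, ARG2 and GLUL, taken by gene symbol from the 16705 genes of the expression table. Messenger RNA was sequenced from human liver spheroids, in which C3A cells, a clonal derivative of the HepG2 hepatoma line, were grown together with LX-2 cells, an immortalized and activated hepatic stellate cell line. Spheroids were left untreated or were exposed to 1% total parenteral nutrition (TPN), a clinical infusion mixture of amino acids with electrolytes, glucose, a lipid emulsion, trace elements and vitamins, for 24 h or 144 h. Per the study's methods, exposure began on day 3 after the cells were seeded, and 24 h and 144 h are counted from then. There were 3 libraries in each of the 4 groups, 12 in all, and no genetic change separated the groups. All groups shared the same medium, which itself held serum and amino acids, and each spheroid pair of lines comes from 1 hepatoma clone and 1 stellate line, so the spheroids stand for no range of donors. Expression was given by the authors as FPKM, fragments scaled to the length of the transcript and to the size of the library, a level that allows genes to be set side by side.

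The urea cycle turns toxic ammonia into urea, mainly in the hepatocytes around the portal vein. In mitochondria, carbamoyl phosphate synthetase 1 (CPS1) joins ammonia and bicarbonate, an enzyme that needs N-acetylglutamate made by NAGS. Ornithine transcarbamylase (OTC) then forms citrulline from carbamoyl phosphate and ornithine, which the carrier ORNT1 (SLC25A15) brings into the mitochondrion in exchange for citrulline. In the cytosol, argininosuccinate synthase (ASS1) and lyase (ASL) turn citrulline and aspartate into arginine and fumarate, and liver arginase (ARG1) splits arginine into urea and ornithine. ARG2 is the mitochondrial arginase of many other tissues. Ammonia that escapes the cycle is bound into glutamine by glutamine synthetase (GLUL), which is found in hepatocytes around the central vein and is a target of Wnt signaling there.

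In the coordinates of the deposited table (GRCh38.p13), CPS1 lies at chr2:210477685-210679107, NAGS at chr17:44004546-44009068, OTC at chrX:38352528-38421446 and SLC25A15 at chr13:40789611-40813109. ASS1 lies at chr9:130444707-130501274, ARG1 at chr6:131573194-131584329, ARG2 at chr14:67619920-67651708 and GLUL at chr1:182377541-182391790. For ASL the table gives chr7:65781538-66542549, a span far wider than the RefSeq gene at chr7:66075819-66093576. Which part of that span the ASL level covers is not given in the sources used here.

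Promoter windows are shown for 5 members whose levels differ most in kind: OTC and ARG1, which were barely detected, ARG2 and ASS1, which changed most with culture time, and CPS1, which changed most with TPN. Each window runs from 250 bases before to 50 bases from a RefSeq transcript start in GRCh38.p14, 300 bases in all, and RefSeq gives 13 such windows for the 9 members. The 5 shown are on the plus strand. Capitals mark letters that match 1 of 5 motifs on either strand. These are TATAAA for a classical core promoter element, CCAAT for the box named after it, GGGCGG for the site of Sp1-type factors, CACGTG for an E-box and TGACGTCA for a cAMP response element. The windows are chrX:38352354-38352653 for OTC, chr6:131572976-131573275 for ARG1, chr14:67619670-67619969 for ARG2, chr9:130444711-130445010 for ASS1 and chr2:210519468-210519767 for CPS1.
OTC: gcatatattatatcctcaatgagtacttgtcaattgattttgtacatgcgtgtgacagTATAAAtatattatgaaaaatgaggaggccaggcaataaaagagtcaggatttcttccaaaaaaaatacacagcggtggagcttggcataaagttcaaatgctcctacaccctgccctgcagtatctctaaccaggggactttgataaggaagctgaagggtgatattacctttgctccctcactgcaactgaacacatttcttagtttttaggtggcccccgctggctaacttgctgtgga
ARG1: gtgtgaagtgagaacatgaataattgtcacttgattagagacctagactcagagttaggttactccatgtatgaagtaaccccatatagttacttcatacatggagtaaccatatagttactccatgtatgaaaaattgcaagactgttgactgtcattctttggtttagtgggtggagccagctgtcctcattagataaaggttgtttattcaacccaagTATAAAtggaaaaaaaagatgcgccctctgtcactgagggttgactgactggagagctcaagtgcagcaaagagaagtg
ARG2: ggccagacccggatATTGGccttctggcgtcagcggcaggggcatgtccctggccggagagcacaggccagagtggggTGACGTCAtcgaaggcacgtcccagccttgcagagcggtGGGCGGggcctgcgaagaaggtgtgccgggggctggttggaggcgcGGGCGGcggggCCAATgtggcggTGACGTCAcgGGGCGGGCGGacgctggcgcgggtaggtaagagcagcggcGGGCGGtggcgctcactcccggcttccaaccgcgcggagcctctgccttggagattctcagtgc
ASS1: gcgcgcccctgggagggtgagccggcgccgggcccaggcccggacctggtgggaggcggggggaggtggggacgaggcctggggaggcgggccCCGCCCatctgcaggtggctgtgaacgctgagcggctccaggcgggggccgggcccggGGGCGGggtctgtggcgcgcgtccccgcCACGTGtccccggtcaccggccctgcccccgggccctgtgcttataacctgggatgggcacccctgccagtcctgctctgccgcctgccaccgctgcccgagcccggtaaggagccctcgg
CPS1: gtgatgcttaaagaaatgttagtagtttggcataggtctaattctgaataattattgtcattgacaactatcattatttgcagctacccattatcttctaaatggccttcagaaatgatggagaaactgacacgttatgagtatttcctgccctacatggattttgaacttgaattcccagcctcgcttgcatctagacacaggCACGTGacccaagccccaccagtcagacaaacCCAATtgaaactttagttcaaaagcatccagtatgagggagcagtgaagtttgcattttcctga

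The windows fell into 2 kinds by base composition. Those of ARG1 and OTC had 40.0% and 41.7% G and C, and the 3 windows of CPS1 had 36.7% to 45.3%, against a median of 58.7% over all 35116 RefSeq windows. The windows of the other 6 members had 64.3% to 80.0%. CG pairs numbered 1 in ARG1, 3 in OTC and 1 to 3 in CPS1, but 15 to 45 in the others, where the median of all windows was 14. GGGCGG was found in 8 of the 13 windows, all from those 6 members, and in 45.0% of all windows. TATAAA was found in OTC and ARG1 and in 11.5% of all windows. In ARG1 it began at position -29 relative to the start, counted as 0, and in OTC at position -192. ARG2 was the member with TGACGTCA, at positions -172 and -64, letters held by 1.85% of all windows. In ARG2 a GC box overlaps another, which gives the run of capitals near position -54. CACGTG was found in 2 windows, 1 of CPS1 and 1 of ASS1 (7.26% of all windows), and CCAAT in 4 windows of 4 members (34.6%). Those 2 windows are the ones printed above for CPS1 and ASS1. The other windows of CPS1 had no match to any of the motifs. The other 4 motifs had no match in any member window: AGGTCA, a nuclear receptor half-site (13.8% of all windows), TTGCNNAA, a C/EBP-type site (10.5%), TGATGNAA, an amino acid response element core (3.62%), and TGACNNNGC, an antioxidant response element core (13.3%). A match is a run of letters, and no binding was measured here.

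The libraries had like summed levels, from 561657 to 583722 FPKM, and an estimated depth of 1.84e+07 fragments per library (95% interval 1.78e+07 to 1.89e+07). Hepatocyte genes led the spheroids, with mean albumin (ALB) between 3830 and 6040 FPKM, while CYP7A1, the rate-limiting enzyme of bile acid synthesis, stayed under 0.5 FPKM in every library. The summed level of the 10 hepatocyte markers was 11900 to 12200 FPKM in untreated and 10900 to 11000 in exposed spheroids at 24 h, and 13200 to 14200 in untreated and 10300 to 11100 in exposed spheroids at 144 h. The summed level of the 11 stellate markers was 195 to 202 and 187 to 192 FPKM at 24 h and 218 to 228 and 237 to 239 at 144 h, untreated and exposed. At 144 h that sum was led by LOX, a collagen cross-linking enzyme, whose mean rose from 56.6 to 146 FPKM with culture time in untreated spheroids, where ACTA2, smooth muscle actin, had a mean of 57.8 FPKM at 24 h. DES, a defining stellate cell marker, was under 0.5 FPKM throughout. The collagen gene COL1A1 fell from 15.1 to 1.92 FPKM and VIM, an intermediate filament gene of mesenchymal cells, from 15.6 to 2.44 FPKM over that time. In bulk RNA, fewer cells of a type and less RNA per cell cannot be told apart, and the part of these shifts in the results that follow was not tested.

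In untreated spheroids at 24 h the order of levels was ASS1, GLUL, ASL, CPS1, SLC25A15, ARG2 and NAGS, from 139 to 6.94 FPKM in the mean, followed by ARG1 and OTC near 0. CPS1 and SLC25A15 overlapped in their libraries, as did ARG1 and OTC, and the other neighbours did not. ASS1 and GLUL stood at percentiles 96.3 and 96.1 of all genes, ARG1 and OTC at percentiles 23.9 and 22.9. By 144 h GLUL had passed ASS1 (149 against 75.8 FPKM) and ARG2 had moved from rank 6 to rank 3 (40.3 FPKM), ahead of ASL (20.7 FPKM). In spheroids exposed for 144 h the order was the same, except that CPS1 and SLC25A15 overlapped again and ARG1 and OTC did not.

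**Figure D1:**
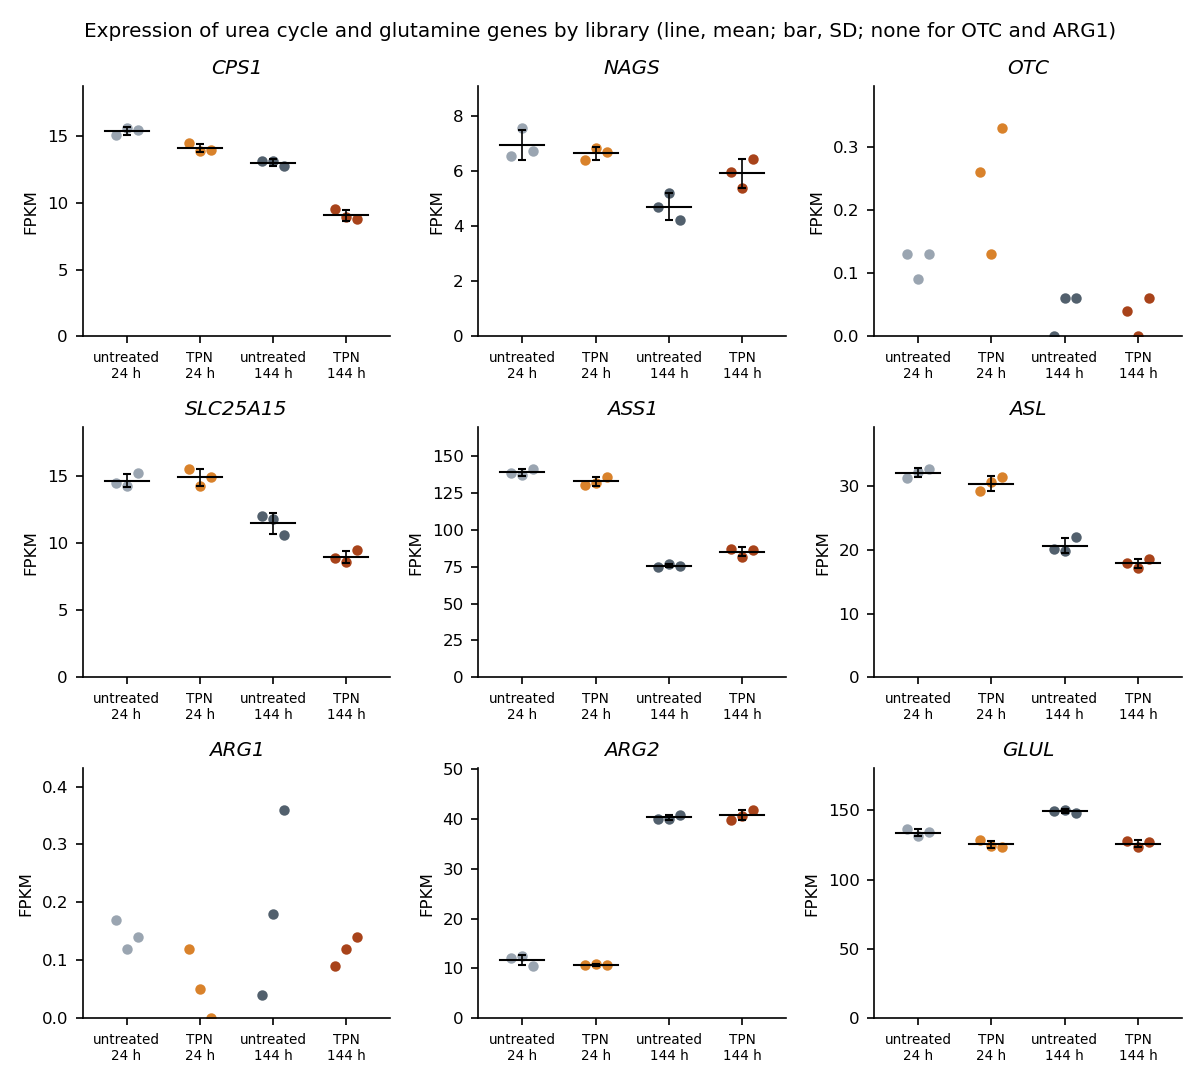
FPKM of each of the 9 genes in the 12 libraries, by group (points, libraries; line, mean of 3; bar, SD; OTC and ARG1 are drawn without mean and SD because some libraries are at 0, and each panel has its own axis from 0). CPS1 and SLC25A15 sit lowest in exposed spheroids at 144 h, ARG2 is near 40 FPKM in both 144 h groups, and OTC and ARG1 stay under 0.4 FPKM.

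Comparing exposed with untreated spheroids asks how TPN altered these genes at each time. After 144 h, 6 of the 7 members tested differed: CPS1, SLC25A15, GLUL and ASL fell, with changes of -30.3% to -13.5% in the mean FPKM, while NAGS rose by 25.6% and ASS1 by 12.6%. ARG2 did not pass the test. Of all genes tested, 24.2% rose and 28.3% fell in this comparison. After 24 h GLUL alone of the 7 passed, with a fall of 6.41%, where 5.04% of all genes rose and 5.46% fell. None of these changes exceeded 0.58 on the log2 scale, the fold threshold that the study set for differentially expressed genes.

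Tests were made with limma on log2(FPKM + 0.1), with p-values adjusted by Benjamini-Hochberg over the 11713 genes tested, and "rose" and "fell" stand for an adjusted p under 0.05. Because of the added 0.1, fold changes of low genes are understated. OTC and ARG1 did not reach the mean of 0.5 FPKM needed for testing. At 24 h, 0 members rose and 1 fell (0 and 4 at an unadjusted p under 0.05), where 5.04% of all genes rose and 5.46% fell, and 0 also passed the fold threshold (0.914% of all genes). At 144 h, 2 members rose and 4 fell, where 24.2% of all genes rose and 28.3% fell, and again 0 passed the fold threshold (9.48% of all genes). The median log2 fold change of the 7 members was -0.08 at 24 h and -0.21 at 144 h, against -0.0045 and -0.018 over all genes. Exposed and untreated libraries did not overlap for 3 members at 24 h (29.9% of all genes) and for 6 at 144 h (57.3% of all genes).

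CPS1, the entry enzyme of the cycle, measured 13.18, 13.16 and 12.76 FPKM in untreated spheroids at 144 h and 9.54, 8.93 and 8.77 FPKM in exposed spheroids. All exposed libraries lay below all untreated ones. The mean fell by 30.3%, from 13 ± 0.237 to 9.08 ± 0.406 FPKM (SD, n = 3), a log2 fold change of -0.52 (SE 0.0417, adjusted p = 2.62e-07, limma). At 24 h CPS1 measured 15.08, 15.65 and 15.50 FPKM untreated and 14.47, 13.92 and 13.95 FPKM exposed. These groups did not overlap either, but the log2 fold change of -0.13 (95% interval -0.216 to -0.036) did not pass after adjustment (adjusted p = 0.0743).

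NAGS makes the cofactor without which CPS1 is inactive. Its level was 4.70, 5.20 and 4.21 FPKM in untreated and 5.95, 5.36 and 6.41 FPKM in exposed spheroids at 144 h, without overlap. The mean rose from 4.70 ± 0.495 to 5.91 ± 0.526 FPKM (SD, n = 3), a log2 fold change of 0.32 (SE 0.0847, adjusted p = 0.00556). At 24 h the libraries overlapped, at 6.55, 7.56 and 6.72 FPKM untreated and 6.38, 6.82 and 6.69 FPKM exposed, and the log2 fold change was -0.063 (95% interval -0.246 to 0.119, adjusted p = 0.721). NAGS and CPS1 thus moved in opposite directions at 144 h, and the ratio of NAGS to CPS1 within a library went from 0.33 to 0.395 in untreated libraries to between 0.60 and 0.731 in exposed ones.

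SLC25A15, the ornithine and citrulline carrier, fell at 144 h as CPS1 did. It measured 12, 11.77 and 10.59 FPKM in untreated and 8.86, 8.59 and 9.45 FPKM in exposed spheroids, again without overlap. The log2 fold change was -0.35 (SE 0.0561, adjusted p = 0.000152), or 21.7% of the mean. At 24 h untreated libraries held 14.48, 14.25 and 15.20 FPKM and exposed libraries 15.53, 14.25 and 14.90 FPKM. Those values overlapped, with a log2 fold change of 0.024 (95% interval -0.097 to 0.145, adjusted p = 0.852). The table holds none of the 5 pseudogenes that GENCODE v44 names for SLC25A15, and levels were estimated with RSEM, which apportions reads that match several transcripts. Whether the authors' reference transcripts held these copies is not given in the sources used here. Exons of 2 other genes, both absent from the table, overlap those of SLC25A15 in GENCODE v44, 1 of them on the same strand.

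OTC, the next mitochondrial step, was close to absent. It was listed at 0.13, 0.09 and 0.13 FPKM in untreated and 0.26, 0.13 and 0.33 FPKM in exposed spheroids at 24 h, and at 0, 0.06 and 0.06 FPKM untreated and 0.04, 0 and 0.06 FPKM exposed at 144 h. At the estimated depth 1 fragment is worth about 0.0425 FPKM, so the highest library rests on about 7.76 fragments and the median on 1.76. ARG1, the liver arginase, was as low, at 0.17, 0.12 and 0.14 FPKM untreated and 0.12, 0.05 and 0 FPKM exposed at 24 h, then 0.04, 0.18 and 0.36 FPKM untreated and 0.09, 0.12 and 0.14 FPKM exposed at 144 h. For both genes groups differed by a few fragments at most. Over 6 comparisons, 3 for each gene, exact two-sided permutation p-values ran from 0.1, the smallest that 3 against 3 libraries allow, to 1.0, and from 0.6 to 1.0 after Benjamini-Hochberg adjustment. With 3 libraries in a group this test could not go below 0.05, so it does not decide whether either gene changed.

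ASS1 and ASL, the cytosolic pair that makes arginine, went in opposite directions with TPN at 144 h. ASS1 measured 75.02, 76.69 and 75.61 FPKM untreated and 87.36, 81.89 and 86.61 FPKM exposed. Every exposed library was above every untreated one, and the log2 fold change was 0.17 (SE 0.0298, adjusted p = 0.000316). ASL measured 20.15, 19.87 and 21.98 FPKM untreated and 17.89, 17.20 and 18.53 FPKM exposed. Here every exposed library was below, with a log2 fold change of -0.21 (SE 0.0453, adjusted p = 0.00164). At 24 h ASS1 was at 138.92, 137.05 and 141.54 FPKM untreated and 130.53, 132.10 and 135.98 FPKM exposed, with no overlap and a log2 fold change of -0.067 (95% interval -0.131 to -0.003) that did not pass after adjustment (adjusted p = 0.19). ASL at 24 h was at 31.35, 32.28 and 32.73 FPKM untreated and 29.18, 30.58 and 31.42 FPKM exposed, which overlap (log2 fold change -0.08, 95% interval -0.178 to 0.018, adjusted p = 0.316). GENCODE v44 names 14 pseudogenes for ASS1 and 1 for ASL, none of them in the table, so a share of these reads may belong to near-identical copies. It also places exons of 1 other gene, absent from the table, over those of ASL on the same strand.

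ARG2, the mitochondrial arginase, was the arginase that was clearly detected, its lowest library (10.54 FPKM) far above the highest of ARG1 (0.36 FPKM). At 144 h it measured 39.99, 40.01 and 40.86 FPKM untreated and 39.73, 40.64 and 41.83 FPKM exposed. The libraries overlapped, and the log2 fold change of 0.016 had a 95% interval of -0.095 to 0.126 (adjusted p = 0.817). At 24 h the values were 12.13, 12.40 and 10.54 FPKM untreated and 10.68, 10.97 and 10.63 FPKM exposed. Untreated replicate 3 lay below all exposed libraries, and the log2 fold change of -0.12 did not pass (adjusted p = 0.19). Without that library it was -0.19 (adjusted p = 0.00911).

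GLUL, the glutamine-forming enzyme, fell at both times. At 144 h it measured 149.59, 150.47 and 147.82 FPKM untreated and 127.70, 123.51 and 126.97 FPKM exposed, far apart on the scale of the replicates. The log2 fold change was -0.24 (SE 0.0263, adjusted p = 4.17e-06), or 15.6% of the mean. At 24 h the values were 136.34, 131.32 and 134.41 FPKM untreated and 128.50, 124.07 and 123.72 FPKM exposed. The groups did not overlap, and the log2 fold change was -0.096 (SE 0.0263, adjusted p = 0.0332). That call was lost without untreated replicate 1, untreated replicate 3, exposed replicate 2 or exposed replicate 3 of 24 h, with adjusted p-values of 0.093 to 0.118. GENCODE v44 names 4 pseudogenes for GLUL, none of them in the table.

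**Figure D2:**
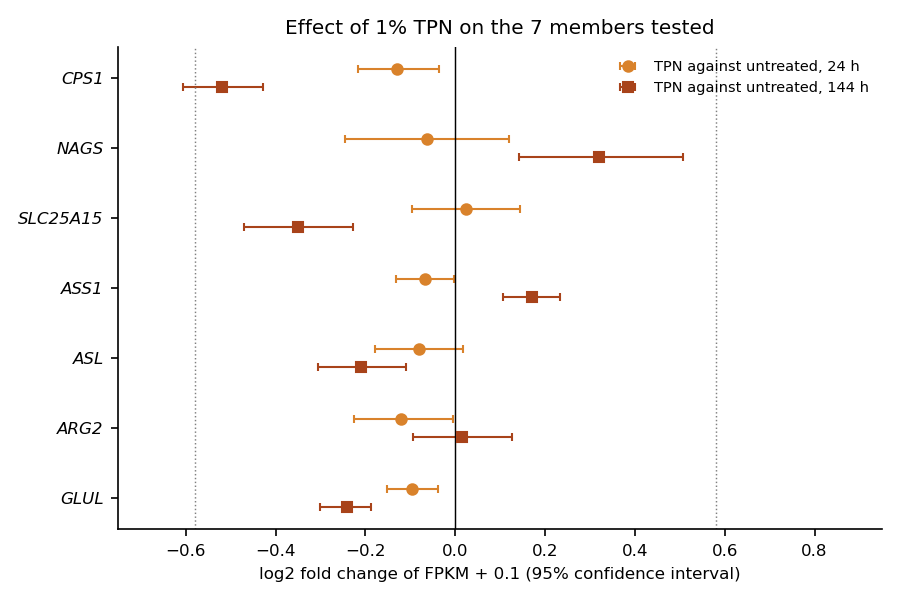
Log2 fold change of FPKM + 0.1 between exposed and untreated spheroids for the 7 members tested (circles, 24 h; squares, 144 h; bars, 95% confidence interval from limma; dotted lines, the fold threshold of 0.58). At 144 h CPS1 is lowest at -0.52 and NAGS highest at 0.32, and no point reaches a dotted line.

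Whether the effect of TPN itself changed between 24 h and 144 h was tested as the difference of the 2 log2 fold changes. It differed for 5 of the 7 members. The effect was lower at 144 h for CPS1 by -0.39 (SE 0.059, adjusted p = 0.000278), for SLC25A15 by -0.37 (SE 0.0793, adjusted p = 0.00319) and for GLUL by -0.15 (SE 0.0372, adjusted p = 0.0088). It was higher at 144 h for ASS1 by 0.24 (SE 0.0422, adjusted p = 0.000957) and for NAGS by 0.39 (SE 0.12, adjusted p = 0.026). For ASL the difference was -0.13 (95% interval -0.266 to 0.01, adjusted p = 0.151) and for ARG2 0.13 (95% interval -0.026 to 0.287, adjusted p = 0.195). Without untreated 24 h replicate 3 the difference for ARG2 was 0.20 and passed (adjusted p = 0.0106). Of all genes, 14.1% had a higher and 16.3% a lower effect at 144 h. Among all genes 5.87% passed the test and also differed by more than 0.58, which 0 members did. The call of NAGS was lost without untreated 24 h replicate 2, exposed 24 h replicate 1, untreated 144 h replicate 3 or exposed 144 h replicate 3, with adjusted p-values of 0.0587 to 0.0666. The call of GLUL was lost with quantile normalization (-0.093, adjusted p = 0.0609).

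Ratios within a library, which do not depend on how libraries are scaled, are given as values only, since an exact permutation test of 3 against 3 libraries cannot go below 0.1. ASS1 to CPS1 was 8.76 to 9.21 in untreated and 9.02 to 9.75 in exposed libraries at 24 h, which overlap. At 144 h it was 5.69 to 5.93 in untreated and 9.16 to 9.88 in exposed libraries. ASS1 to ASL was 3.44 to 3.86 untreated and 4.67 to 4.88 exposed at 144 h. GLUL to CPS1 was 11.3 to 11.6 untreated and 13.4 to 14.5 exposed at 144 h. For these 3 ratios untreated and exposed libraries did not overlap at 144 h. For ASS1 to CPS1 and ASS1 to ASL this follows from the members themselves, since ASS1 rose and the other gene fell without overlap.

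Untreated spheroids at 144 h were compared with those at 24 h to learn how the genes changed with culture alone. ARG2 rose 3.45-fold, from 11.7 ± 1.01 to 40.3 ± 0.497 FPKM (SD, n = 3), the largest change of any member. ASS1 fell by 45.6%, from 139 ± 2.26 to 75.8 ± 0.847 FPKM, and ASL fell by 35.7%, from 32.1 ± 0.704 to 20.7 ± 1.15 FPKM. NAGS changed by -32.3%, SLC25A15 by -21.8% and CPS1 by -15.4%, while GLUL rose by 11.4%. The libraries of the 2 times did not overlap for any of the 7 members (74.9% of all genes).

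In this comparison 2 members rose and 5 fell, where 20.1% of all genes rose and 52.4% fell, and 3 members (ARG2, ASS1 and ASL) also passed the fold threshold (19.0% of all genes). The log2 fold changes were 1.78 for ARG2 (SE 0.0513, adjusted p = 5.91e-12), -0.88 for ASS1 (SE 0.0298, adjusted p = 2.29e-11) and -0.63 for ASL (SE 0.0453, adjusted p = 2.77e-08). The median of all genes itself stood at -0.18 and the median of the 7 members at -0.35. Relative to the median of all genes the values were 1.96 for ARG2, 0.34 for GLUL, -0.057 for CPS1, -0.17 for SLC25A15, -0.37 for NAGS, -0.45 for ASL and -0.69 for ASS1. No member changed direction when libraries were brought to the same median ratio, to the same FPKM sum or to the same quantiles. Under the same median ratio, however, CPS1 no longer passed (-0.063, adjusted p = 0.188). Over all the alternative settings ASL ranged from -0.68 to -0.457, so whether it passed the fold threshold depended on the processing. With a library left out it stayed between -0.68 and -0.607. NAGS ranged from -0.628 to -0.379 and so also lay on both sides of that threshold.

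The exons of ARG2 overlap those of VTI1B on the opposite strand. Per the labels the libraries kept strand, but whether counting used it is not given in the sources used here. VTI1B fell with time, from 13.2 to 10.0 FPKM (log2 fold change -0.39, adjusted p = 5.52e-07), in the direction opposite to ARG2.

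**Figure D3:**
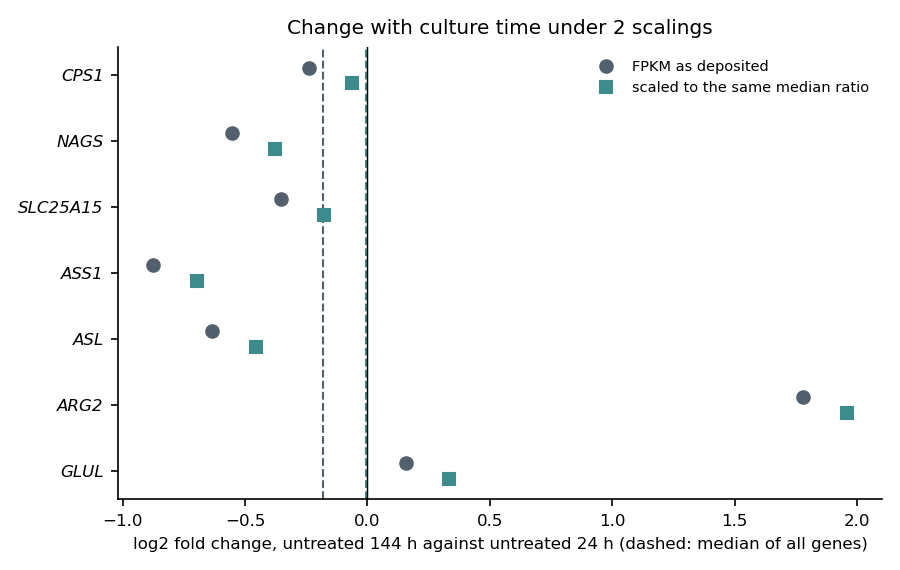
Log2 fold change between untreated spheroids at 144 h and at 24 h for the 7 members tested (circles, FPKM as deposited; squares, libraries scaled to the same median ratio; dashed lines, the median of all genes under each scaling). ARG2 lies far to the right at 1.78 as deposited, ASS1 is lowest at -0.88, and CPS1 comes close to 0 under the same median ratio.

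Genes that feed the cycle or draw on its products were followed in 8 further lists. Their counts are read beside the shares over all genes given above, 24.2% higher and 28.3% lower with TPN at 144 h and 5.04% and 5.46% at 24 h, and no list was tested as a group. Among 13 glutamine and glutamate enzymes tested, 5 rose and 3 fell with TPN at 144 h (median log2 fold change 0.06). GLUD1, glutamate dehydrogenase, which releases ammonia from glutamate in mitochondria, fell from 445 ± 3.74 to 295 ± 5.04 FPKM (log2 fold change -0.59, adjusted p = 2.43e-09), and had already fallen at 24 h from 601 ± 23.7 to 522 ± 8.4 FPKM (-0.20, adjusted p = 0.000528). CTPS2, a glutamine-using CTP synthase, fell from 9.46 to 7.44 FPKM at 144 h (-0.34, adjusted p = 2.66e-05). At 24 h 1 gene of this list rose, ASNS, asparagine synthetase (0.40, adjusted p = 2.96e-05), and GLUD1 was the 1 that fell.

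Of 17 amino acid carriers of the plasma membrane tested, 10 rose and 2 fell at 144 h (median log2 fold change 0.23, where 24.2% of all genes rose and 28.3% fell), against 5 higher and 1 lower at 24 h (median 0.013). SLC3A2, the heavy chain shared by several exchangers, went from 129 ± 2.86 to 202 ± 3.52 FPKM at 144 h (0.64, adjusted p = 1.47e-09). SLC6A14, a carrier of neutral and cationic amino acids, went from 28.5 to 40.1 FPKM (0.49, adjusted p = 5.67e-07), and SLC38A4 from 1.14 to 2.23 FPKM (0.92, adjusted p = 0.000486). At 24 h the glutamine carrier SLC1A5 rose from 132 to 160 FPKM (0.28, adjusted p = 1.9e-05) and the arginine carrier SLC7A1 from 20.2 to 22.6 FPKM (0.16, adjusted p = 0.00967). SLC1A2, a glutamate carrier, fell at 24 h (-0.23) and rose at 144 h (0.40).

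Among 14 mitochondrial carriers and enzymes of aspartate supply tested, 5 rose and 7 fell at 144 h (median -0.00061). CA5A, the mitochondrial carbonic anhydrase that supplies bicarbonate to CPS1, fell from 31.8 to 27.6 FPKM at 24 h (-0.21, adjusted p = 0.0148) and from 22.1 to 13.8 FPKM at 144 h (-0.68, adjusted p = 8.25e-08). GPT, alanine aminotransferase, fell from 2.65 to 1.27 FPKM at 144 h (-1.0, adjusted p = 2.28e-06). SLC25A29, a mitochondrial carrier of basic amino acids, rose from 5.72 to 8.4 FPKM (0.54, adjusted p = 4.41e-05), as did the glutamate carrier SLC25A18 from 0.527 to 1.01 FPKM (0.83, adjusted p = 0.00206). At 24 h GOT1, cytosolic aspartate aminotransferase, was the 1 gene of this list that rose (0.17, adjusted p = 0.00397).

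Ornithine, the product of arginase, also feeds polyamines and proline. Of 17 enzymes tested there, 5 rose and 6 fell at 144 h (median 0.028); the counts at 24 h were 4 and 1. ODC1, ornithine decarboxylase, which opens polyamine synthesis, rose from 161 ± 4.58 to 227 ± 8.87 FPKM at 144 h (0.50, adjusted p = 3.39e-08), and SMOX, spermine oxidase, rose from 31.7 to 49.0 FPKM (0.63, adjusted p = 1.36e-07). Both had risen at 24 h, by 0.21 and 0.28 on the log2 scale. PYCR3, of proline synthesis, and ALDH4A1, of proline breakdown, fell at 144 h (-0.55 and -0.30). Of 8 other genes of arginine and creatine use tested, 1 rose and 7 fell at 144 h (median -0.21, where 24.2% of all genes rose and 28.3% fell), and 0 passed at 24 h with limma (1 higher and 1 lower at an unadjusted p under 0.05). CKB, the brain-type creatine kinase, which uses creatine and not arginine itself, fell from 195 to 92.0 FPKM (-1.08, adjusted p = 3.51e-11), and GAMT, which makes creatine, from 73.1 to 53.4 FPKM (-0.45, adjusted p = 1.72e-08).

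Of 15 genes of amino acid and nucleotide breakdown tested, 5 rose and 4 fell at 144 h (median -0.027). AMPD3, an AMP deaminase, rose from 0.987 ± 0.0513 to 4.03 ± 0.226 FPKM (1.93, adjusted p = 1.9e-08), and ADA, adenosine deaminase, from 4.62 to 7.50 FPKM (0.68, adjusted p = 0.000419). HAL, which releases ammonia from histidine, fell from 3.8 to 2.13 FPKM (-0.81, adjusted p = 0.00098).

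Among 13 regulators of urea cycle genes tested, 2 rose and 7 fell at 144 h (median -0.12), against 2 higher and 3 lower at 24 h. CEBPA and CEBPB, related factors with roles in liver gene expression, parted: CEBPA fell from 46.1 ± 1.18 to 27.1 ± 2.15 FPKM (-0.77, adjusted p = 3.73e-08), and CEBPB rose from 54.5 ± 1.73 to 87.9 ± 3.1 FPKM (0.69, adjusted p = 1.51e-08). They had moved the same ways at 24 h, by -0.32 and 0.25. NR1H4, the bile acid receptor FXR, fell by 0.81 on the log2 scale at 144 h and KLF15, a factor of amino acid breakdown, by 1.35, from 0.957 to 0.317 FPKM.

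GLUL belongs to the perivenous genes, so Wnt and perivenous genes were set beside it. Of 14 tested, 0 rose and 8 fell at 24 h with limma (0 and 9 at an unadjusted p under 0.05, median -0.18), and 2 rose and 6 fell at 144 h (median -0.045). NKD1 and TBX3, targets of Wnt signaling, fell at 24 h from 40.2 to 28.7 FPKM (-0.48, adjusted p = 6.37e-07) and from 30.4 to 22.7 FPKM (-0.42, adjusted p = 2.17e-06). NOTUM, a secreted Wnt inhibitor and itself a target, changed by -0.29 at 24 h and by -0.79 at 144 h on the log2 scale and passed both times. RHBG, an ammonium transporter of perivenous hepatocytes, fell from 10.5 to 7 FPKM at 144 h (-0.58, adjusted p = 4.72e-06). SLC1A2, the glutamate carrier named above and also a perivenous gene, went the other way at 144 h, from 5.43 to 7.22 FPKM (0.40, adjusted p = 0.000207). With culture time in untreated spheroids 2 of the 14 rose and 12 fell (median -0.43), where 20.1% of all genes rose and 52.4% fell. GLUL rose in that comparison, by 0.16 on the log2 scale. Hepatocyte markers moved as well: with limma 5 of the 9 tested fell at 24 h and 7 at 144 h, 0 rose at either time (also 0 at an unadjusted p under 0.05), and ALB fell by 0.65 on the log2 scale at 144 h. For the 10 stellate markers tested, 1 was called higher and 1 lower at 24 h, and 1 higher and 5 lower at 144 h. Their part in the members' changes was not tested.

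**Figure D4:**
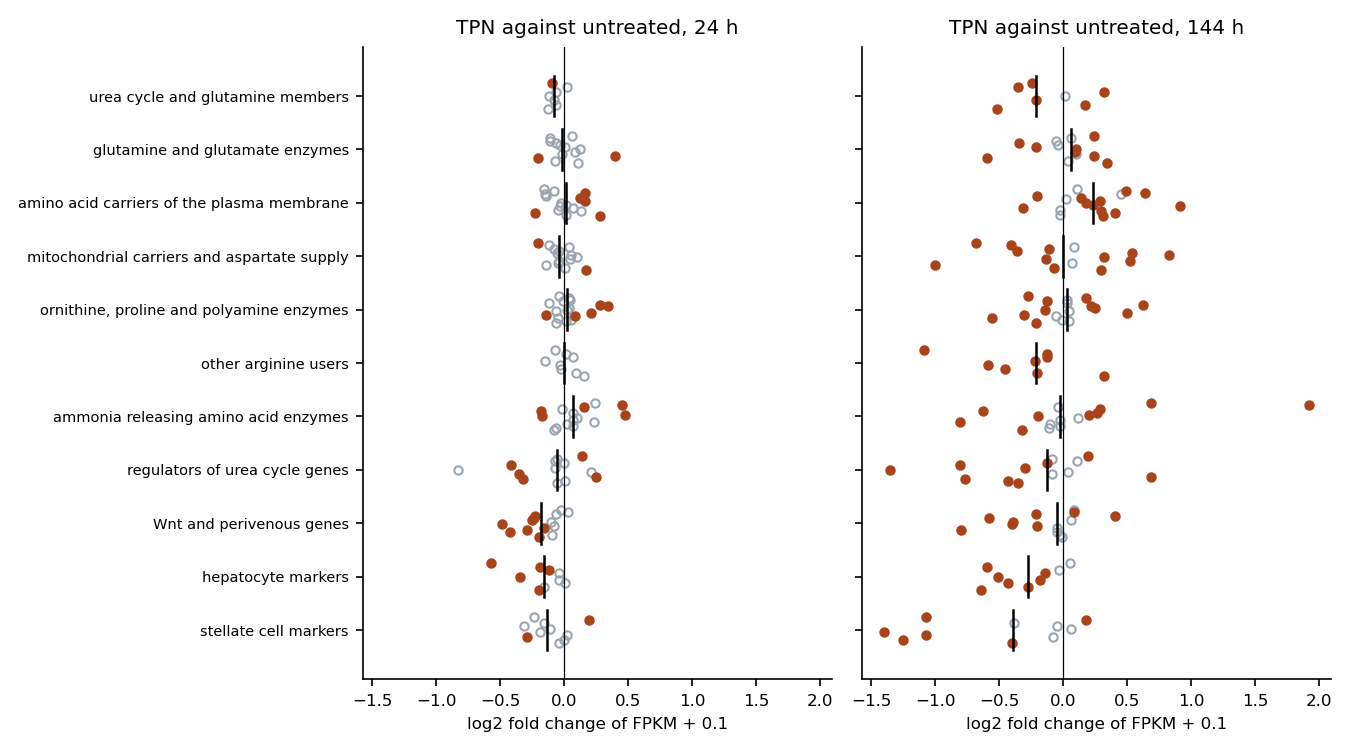
Log2 fold change of every tested gene of the members' list, the 8 further lists and the marker lists between exposed and untreated spheroids at 24 h (left) and 144 h (right) (filled, adjusted p under 0.05 with limma; open, not past it; black line, median of the list). Most points lie nearer to 0 at 24 h, and at 144 h the carriers lie mostly to the right, with a median of 0.23.

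The genes whose levels followed each member most closely were sought among all tested genes by the root mean square (RMS) difference of log2 levels over the 12 libraries, each gene centred on its own mean. For CPS1 these were ATAD2, CTNNBIP1 and DOP1A, with RMS differences of 0.0336, 0.0344 and 0.0465 where CPS1 itself varied by 0.29. For ASS1 they were STEAP3, MTA2 and CTSA (0.0324 to 0.0407, own variation 0.385), and for ASL MRPS7, EEF2KMT and CENPB (0.0379 to 0.0473, own variation 0.361). For SLC25A15 they were ZBED3, PPP4R1 and PSMC3 (0.0521 to 0.0587, own variation 0.302), for GLUL PCBP2, MCPH1 and VAV2 (0.0326 to 0.0373, own variation 0.103), and for NAGS COMMD5, SMPD1 and PLXNB3 (0.0866 to 0.0903, own variation 0.234). ATAD2, for example, measured 50.5, 47.7, 43.3 and 30.0 FPKM in the means of untreated 24 h, exposed 24 h, untreated 144 h and exposed 144 h, and STEAP3 17.3, 17.0, 9.38 and 10.8 FPKM.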

How the data were processed

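The 12 libraries were strand-specific messenger RNA libraries sequenced as DNA nanoballs. The submitters' processing notes name HISAT2 2.0.4, Bowtie2 2.2.5 and the build GRCh38.p13, and the authors deposited FPKM values of 16705 genes that they had estimated with RSEM, used here without further scaling. Their own test needs read counts, so limma 3.58.1 (R 4.3.3) was used instead, on log2(FPKM + 0.1) for the 11713 genes with a mean of 0.5 FPKM or more, with means for the 4 groups, an intensity trend and Benjamini-Hochberg adjustment. The 20 rows that name no gene were left out. Replicates stand for independent experiments per the study's methods. Each library held pooled spheroids.

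Depth was estimated from 39 short genes (of 70 examined) whose 202 nonzero values were whole multiples of a step within 0.15. Its interval is that of a Theil-Sen slope over these genes. Genes named are all members, the up to 4 largest changes past the test in each list and comparison, and the 3 genes most alike to each member that passed with TPN. Some genes that meet this rule are not reported here. The members and lists were chosen with earlier results of these data known. Alternatives were other pseudocounts, filters and scalings, a fit without trend, a fit of the compared groups, a replicate block, and leaving out each library. The procedure was tested on simulated data. Python 3.11.15, pandas 2.3.3, scipy 1.17.1 and matplotlib 3.10.9 were used for tables and figures.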

Additional observations from a re-analysis of the deposited data

Results flagged for a closer look

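For 5 members the effect of TPN on the log2 scale differed between 144 h and 24 h by a test of the difference itself (limma, adjusted over all genes tested). CPS1 differed by -0.39, SLC25A15 by -0.37 and GLUL by -0.15, so that these genes stood lower against their untreated controls at 144 h than at 24 h. NAGS differed by 0.39 and ASS1 by 0.24 in the other direction. Of all genes, 14.1% had a higher and 16.3% a lower effect at 144 h. The call of NAGS was lost with no filter (adjusted p = 0.0511, limma) and when some single libraries were left out. The call of GLUL was lost with quantile normalization (adjusted p = 0.0609, limma). The 2 times have their own untreated libraries.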

How the results depend on the processing

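Of 609 recomputed log2 fold changes of members, 592 kept their direction and side of the threshold, 13 lost a call, 2 gained one and 2 changed sign. Many of the 609 could not change sign. Another filter, the fit without trend, the fit of the compared groups and the replicate block leave the fold change itself as it was. So does leaving out a library of a group not compared. In those settings only the adjusted p could move, so the 592 do not measure how stable the directions are. Members called lower at 24 h numbered 0 in place of 1 (GLUL) without the intensity trend and with only the groups compared, and 0 to 1 when a library was left out. Members with a higher TPN effect at 144 h numbered 1 in place of 2 (NAGS lost, adjusted p = 0.0511) with no filter, and 1 to 3 when a library was left out (3 without untreated 24 h replicate 3, where ARG2 passed). SLC25A15 at 24 h ranged from -0.0065 (without TPN 24 h replicate 1) to 0.0551 and ARG2 at 144 h from -0.0037 (without TPN 144 h replicate 3) to 0.0334 when a library was left out, none past the test. The cause was not tested.

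Genes past both thresholds at 24 h, at 144 h, in the difference and with culture time numbered 107, 1110, 687 and 2230. With a pseudocount of 1 the first 3 were 58, 698 and 435, and with a filter of 5 FPKM the 4 were 59, 523, 282 and 1337, where fewer genes were tested. Same-numbered replicates deviated together by correlations of -0.083 to 0.151, with 5 of 18 pairs over 0.1. The main fit did not pair them, but low correlations cannot show that samples are unpaired. Whether same-numbered replicates share an experiment is not given in the sources used here. With the replicate block 111, 1108, 679 and 2230 genes passed, GLUL at 24 h stood at -0.096 (adjusted p = 0.0331), and no call of a member changed. FPKM values carry no read counts, so levels near 0 (OTC, ARG1) rest on an estimated depth.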
